A study of Homo sapiens with 6 samples.

Results

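The genes described here are the protein-coding genes of human chromosome 13, compared between wild-type (WT) cells and cells in which the receptor gene GPR56 had been knocked out (KO). They are 295 of the 58735 genes of the deposited table. The table holds 321 protein-coding genes on this chromosome, and 26 of them were left out by name. The chromosome was chosen by earlier KO minus WT values of these same libraries, whose median stood apart for it. Its counts and medians below are therefore a description of that choice, with no test of the chromosome. The p-values of single genes come from 1 fit over all genes and describe those genes.

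The study sequenced RNA of HT1080 cells, an established line from a human fibrosarcoma, as 3 WT and 3 KO libraries, KO cells having been made with CRISPR-Cas9. GPR56 is an adhesion G protein-coupled receptor, approved symbol ADGRG1, encoded on chromosome 16. Both genotypes carry the solvent name DMSO in their sample descriptions, with no dose or time. The labels do not give the number of KO clones, the targeted site, or whether libraries of 1 genotype came from separate cultures. The p-values thus rest on the spread among these samples, and that spread may be technical.

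Chromosome 13 is an acrocentric chromosome: its short arm carries repeats and ribosomal RNA genes, and the protein-coding genes lie on the long arm. They have no common function. They include cell-cycle and chromatin regulators, mitochondrial enzymes, lysosomal membrane proteins, ligands and many genes used only in other tissues. Neighbours that start close together on opposite strands, called head-to-head pairs, share the DNA between their starts, and so are a place where genes next to each other on the chromosome can be compared one with the other.

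The DNA between the starts of 4 such pairs is printed because the partners of the first 3 pairs had unlike KO minus WT differences, given below, and those of the last pair like ones. The pairs were picked after their values were seen. Sequences are from RefSeq (GRCh38.p14), plus strand, 5′ to 3′, and run from the start of the minus-strand gene, named first, to that of the plus-strand gene. RefSeq names KDELC1 as POGLUT2, and its starts are not those of the deposited annotation, in which 42, 338, 41 and 46 bases separate the starts of the 4 pairs in the order below. The printed stretch thus reaches into deposited gene bounds for 3 pairs and stops short of the deposited start of LNX2 in the other. Capitals mark each match, on either strand, to one of 5 promoter motifs: the GC box with the letters GGGCGG, the box named for its letters CCAAT, the E-box with the letters CACGTG, the TATA box searched as TATAAA, and the core of the cAMP response element, searched as TGACG. The stretches are chr13:102798977-102799118 (142 bases), chr13:27620530-27620742 (213 bases), chr13:75549440-75549501 (62 bases) and chr13:44989472-44989537 (66 bases), in that order.
KDELC1/BIVM: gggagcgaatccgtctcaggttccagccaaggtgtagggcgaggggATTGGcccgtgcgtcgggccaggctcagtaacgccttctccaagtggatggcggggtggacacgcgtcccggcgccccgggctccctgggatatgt
LNX2/POLR1D: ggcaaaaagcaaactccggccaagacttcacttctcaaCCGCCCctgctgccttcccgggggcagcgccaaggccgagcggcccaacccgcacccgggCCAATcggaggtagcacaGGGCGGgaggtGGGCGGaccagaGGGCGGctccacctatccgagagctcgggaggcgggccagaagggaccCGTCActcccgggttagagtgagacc
COMMD6/UCHL3: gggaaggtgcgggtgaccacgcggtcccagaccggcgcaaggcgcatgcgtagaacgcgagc
NUFIP1/GPALPP1: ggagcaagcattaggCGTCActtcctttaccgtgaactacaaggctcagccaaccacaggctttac

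The stretch between KDELC1 and BIVM held 1 CCAAT box, which 22.8% of 35116 RefSeq promoters held in as many bases before their start. Between LNX2 and POLR1D lay 4 GC boxes, 1 CCAAT box and 1 TGACG core. At that length 40.9% of promoters held a GC box, whatever the number of copies, 29.1% a CCAAT box and 19.2% a TGACG core. The share of promoters with 4 GC boxes was not counted. None of the 5 motifs was found in the stretch between COMMD6 and UCHL3. The stretch between NUFIP1 and GPALPP1 held 1 TGACG core, a motif in 8.4% of promoters at that length. Its GC content was 51.5%, against 67.6% to 71.0% in the other stretches.

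The deposited FPKM values (reads scaled by gene length and library size) corresponded to 16410352 to 17276269 reads per library, so that 1 read in 1 kb was worth 0.0581 to 0.0602 FPKM. ADGRG1, the targeted gene, stood at 6.61, 6.07 and 6.87 FPKM in WT and at 2.68, 2.54 and 2.58 FPKM in KO, so its RNA was lower but present in every KO library. Of 8 mesenchymal markers, 7 reached a mean of 1 FPKM, THY1 being the exception. The sum of this list was 1700 to 1770 FPKM in WT and 2040 to 2120 FPKM in KO. LGALS1 was its largest part, with means of 739 FPKM in WT and 912 FPKM in KO. VIM went the other way in its means (311 FPKM in WT and 287 FPKM in KO), and its libraries overlapped. The sums of the epithelial list (33.7 to 37.8 against 55.3 to 56.6 FPKM, 1 of 4 markers, KRT8, at 1 FPKM or more) and of the endothelial list (0.289 to 0.379 against 1.37 to 1.57 FPKM, mostly PECAM1) were also higher in KO. CDH1, PTPRC and ALB, defining markers of epithelial cells, leukocytes and hepatocytes, were at 0 in every library. The leukocyte sum was 0 to 0.0729 FPKM in WT and 0.104 to 0.406 FPKM in KO. The hepatocyte sum was 0.0422 to 0.253 FPKM in WT and 0 to 0.122 FPKM in KO. The part of these shifts in the values below was not tested. In bulk RNA, fewer cells of a type and less RNA per cell cannot be told apart. No DNA was measured, so the number of copies of chromosome 13 and the RNA made per copy cannot be told apart either.

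Genes of chromosome 13 were mostly higher in the KO libraries. Of the 295 genes, 171 had a mean of at least 1 FPKM over the 6 libraries and were tested. Among these, 82 rose (48.0%), 9 fell (5.3%) and 80 did not pass the threshold (limma on log2(FPKM + 1), Benjamini-Hochberg adjusted p under 0.05). The 9 lower calls became 4 without WT replicate 1 or without KO replicate 2, and became 5 without WT replicate 2. Over all 12000 genes tested, 43.4% were called, 21% higher and 22.4% lower in KO. The median KO minus WT difference of the 171 genes was 0.25 on the log2(FPKM + 1) scale, with quartiles of 0.01 and 0.52, against a median of -0.01 over all genes. As a ratio of mean FPKM, without the pseudocount, the median was 1.23 (quartiles 1.0 and 1.52), against 0.99 for all genes. The KO values lay above all WT values for 96 of the 171 genes and below them for 12, where 26.4% and 28.3% of all genes did so.

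The values of single libraries describe the shift for which the chromosome was chosen, and they are no separate evidence of it. The 295 genes took 1.224%, 1.272% and 1.118% of all reads in the WT libraries and 1.538%, 1.552% and 1.623% in the KO libraries. The genotypes did not overlap in this share, whose means were 1.205% ± 0.079 in WT and 1.571% ± 0.046 in KO (SD, n = 3 each). Set against each gene's own mean over the 6 libraries, the median of the 171 genes was -0.11, -0.05 and -0.20 (log2) in the WT libraries and 0.12, 0.09 and 0.17 in the KO libraries. Since these deviations are centred on the 6 libraries, low values in WT go with high values in KO. Of the 171 genes, 48, 69 and 18 stood above their own mean in WT replicates 1, 2 and 3. In KO replicates 1, 2 and 3, 128, 115 and 143 did.

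**Figure D1:**
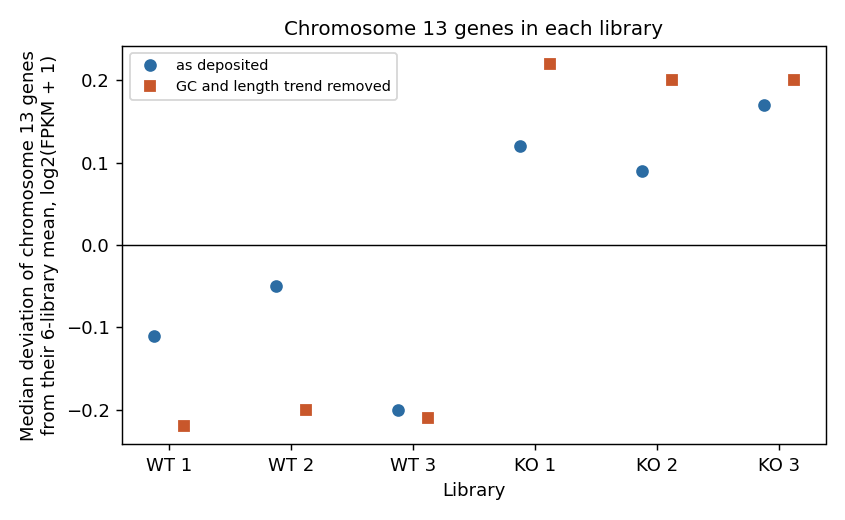
Median deviation of the 171 tested chromosome 13 genes from their own 6-library mean, in log2(FPKM + 1) (y axis), for each library (x axis). Circles are the values as deposited, from -0.20 to -0.05 in WT and 0.09 to 0.17 in KO; squares are the values with the trend on GC content and length removed, from -0.22 to -0.20 in WT and 0.20 to 0.22 in KO.

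A trend on base composition ran through the libraries and touched these genes. The median GC content of the 171 genes was 41.6%, below the 48.3% of all tested genes. Across genes, which are not independent replicates, the deviation of a library correlated with GC content at a Spearman rho of -0.40, -0.62 and -0.01 in the WT libraries and 0.46, 0.44 and 0.23 in the KO libraries. GC-poor genes therefore read lower in KO than GC-rich ones. This trend went with genotype, so a technical trend and a genotype difference tied to GC content cannot be told apart. Removal takes out both, and values with the trend removed are given beside those as deposited, not as truer ones. With the GC and length trend of each library removed, 131 chromosome 13 genes were called higher (76.6%) and 7 lower, and the median was 0.42 (quartiles 0.21 and 0.60), with 151 of 171 genes above 0. Over all genes the same step gave 43.8% called, 21.7% higher and 22.1% lower. Both fits called 81 of the same genes higher and 6 lower. IL17D alone lost its call as higher, and USP12, UFM1 and FNDC3A lost theirs as lower.

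Values as deposited differed between GC-poor and GC-rich genes of the chromosome more than those with the trend removed. The removal is built to narrow this gap. The 86 genes at or below the median GC content had a median of 0.12, with 25 called higher, and the 85 above it a median of 0.41, with 57 called higher. After removal of the trend the medians were 0.40 and 0.45, with 68 and 63 called higher. Split by mean level into 3 equal groups, the lowest, middle and highest had medians of 0.16, 0.18 and 0.39, and of 0.35, 0.38 and 0.52 after removal.

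**Figure D2:**
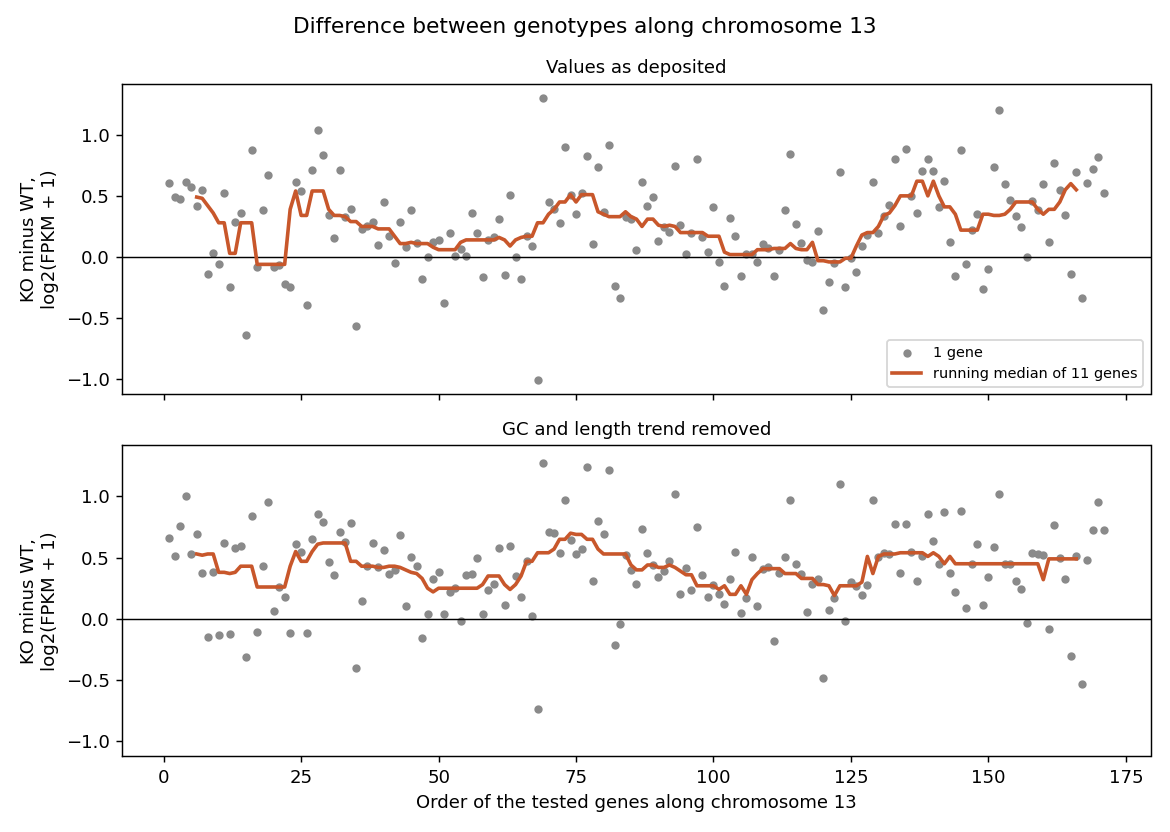
KO minus WT difference in log2(FPKM + 1) of the 171 tested genes (y axis), in their order along chromosome 13 (x axis), as deposited (top) and with the GC and length trend removed (bottom). Points are genes and the line is the running median of 11 neighbours, which lay above 0 at 148 of 161 places in the top panel and at all 161 in the bottom panel.

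Along the chromosome the difference was not confined to 1 end. In the 8 windows of 10 Mb with at least 5 tested genes, the median ran from 0.06 at 70 to 80 Mb to 0.50 at 110 to 120 Mb (GRCh38). With the GC and length trend removed the window medians ran from 0.27 at 50 to 60 Mb to 0.51 at 90 to 100 Mb. The 4 genes tested below 20 Mb, among them PSPC1, a paraspeckle protein, were all called higher, with a median of 0.55. From 20 to 30 Mb, 19 of 33 genes rose (57.6%, where 21% of all genes did) and 4 fell (median 0.33); 23 were called higher with the trend removed. From 30 to 40 Mb, 3 of 18 rose (16.7%, below the share of all genes) and 1 fell (0.11), while 12 were called higher with the trend removed, at a median of 0.36. From 40 to 50 Mb, 18 of 37 rose (48.6%) and 2 fell (0.31), against 31 called higher with the trend removed.

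Differences as deposited were also small from 50 to 80 Mb. From 50 to 60 Mb, 3 of 13 genes rose (23.1%, near the 21% of all genes), with a median of 0.17; 8 were called higher with the trend removed. A single gene, TDRD3, which encodes a reader of methylated arginine, was tested from 60 to 70 Mb. Its level was 2.01, 2.43 and 1.96 FPKM in WT and 2.14, 1.98 and 2.43 FPKM in KO, which overlapped. From 70 to 80 Mb, 4 of 17 genes rose (23.5%, again near the share of all genes) and 1 fell (0.06), and no gene was tested from 80 to 90 Mb. With the trend removed the median at 70 to 80 Mb became 0.37, with 12 genes called higher.

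Among the 8 windows with at least 5 tested genes, the 3 distal ones had the highest medians as deposited. Only that at 110 to 120 Mb stood clear of the 0.33 at 20 to 30 Mb. Without WT replicate 3 the median at 90 to 100 Mb was 0.24, under the 0.28 at 20 to 30 Mb. With the trend removed 40 to 50 Mb (0.47) lay above 100 to 110 Mb (0.45). From 90 to 100 Mb, 8 of 15 genes rose (53.3%) and none fell (0.34). From 100 to 110 Mb, 7 of 13 rose (53.8%) and none fell (0.35). From 110 to 120 Mb, 16 of 20 rose (80%) and 1 fell (0.50). With the trend removed 14, 11 and 16 genes of these windows were called higher. This last window was also the most GC-rich, at a median of 49.3%, where the windows below it lay between 40.0% and 43.4%. Its median with the trend removed was 0.49. The running median was lowest at SPATA13 (-0.06) and highest at ZIC5 (0.62) as deposited, and lowest at RBM26 (0.19) and highest at COG3 (0.70) with the trend removed.

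**Figure D3:**
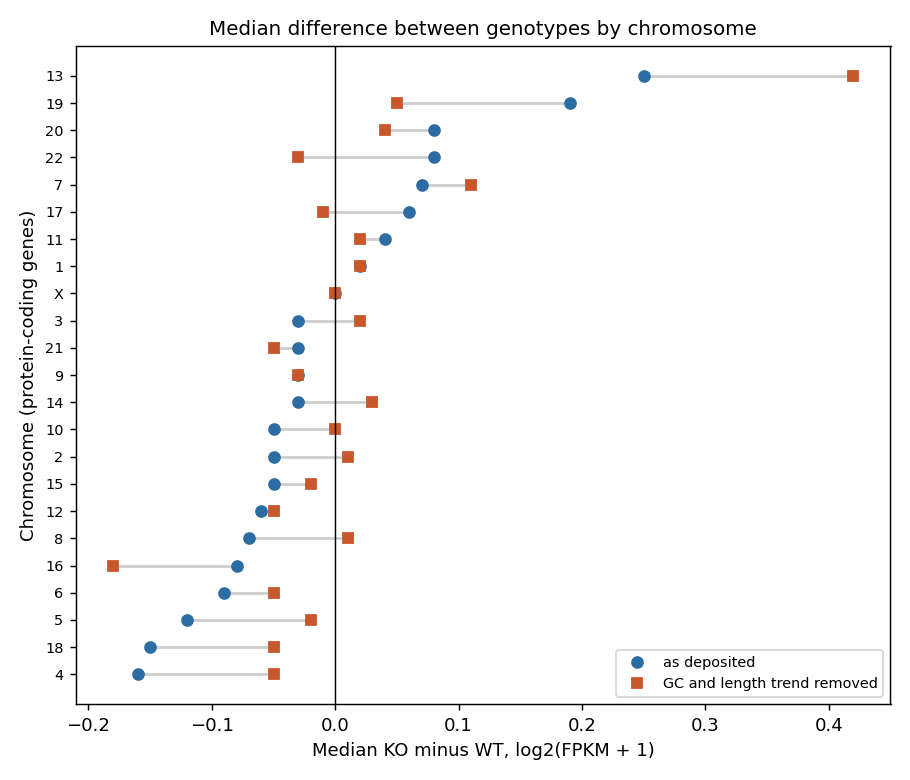
Median KO minus WT difference of the tested protein-coding genes in log2(FPKM + 1) (x axis) for each chromosome (y axis), as deposited (circles) and with the GC and length trend removed (squares). Chromosome 13 lies at 0.25 and 0.42; the other 22 chromosomes lie between -0.16 and 0.19 as deposited and between -0.18 and 0.11 with the trend removed.

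On the other 22 chromosomes with at least 20 tested protein-coding genes the median lay between -0.16 and 0.19, chromosome 19 being the highest. With the GC and length trend removed it lay between -0.18 on chromosome 16 and 0.11 on chromosome 7. The spread of single genes on chromosome 13 (interquartile range 0.50) was within the range of the others, 0.37 to 0.51. The choice of members left aside 48 tested non-coding and pseudogene rows of chromosome 13. Of these, 11 were higher (22.9%, near the 21% of all genes) and 3 lower (6.2%, against 22.4% of all genes). Their median was 0.12. With the trend removed 18.8% were higher and 10.4% lower, with a median of 0.11.

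The largest increase on the log2(FPKM + 1) scale was that of TSC22D1, a transcriptional regulator responsive to TGF-beta (minus strand, chr13:44432143-44577147). Its level was 16.0, 17.4 and 15.6 FPKM in WT and 43.1, 39.4 and 42.8 FPKM in KO. All KO libraries lay far above all WT libraries, and the KO to WT ratio was 2.55, with a log2 difference of 1.30 ± 0.07 (SE; limma, adjusted p = 2.91e-05). RAB20, a small GTPase of endosomes, was at 2.57, 1.54 and 2.81 FPKM in WT and 7.33, 6.89 and 5.44 FPKM in KO, from 39 to 71 and 137 to 191 reads. It rose 2.84-fold in mean FPKM, a larger ratio than that of TSC22D1, with an adjusted p of 0.00153 by limma. RASL11A, another small GTPase, stood at 1.56, 3.11 and 2.07 FPKM in WT and 5.35, 5.51 and 5.75 FPKM in KO. Its ratio was 2.46, on 43 to 84 reads per WT library.

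ITM2B, a membrane protein whose mutant forms deposit in familial dementias, was at 13.8, 14.5 and 12.6 FPKM in WT and 26.0, 24.9 and 28.9 FPKM in KO (ratio 1.95). TPT1, the abundant translationally controlled tumour protein, was at 102, 112 and 95.1 FPKM in WT and 170, 202 and 206 FPKM in KO (ratio 1.87). Both rose without overlap between genotypes; processed pseudogenes of TPT1 exist, so its reads cannot be assigned with certainty. UBAC2, a membrane protein of endoplasmic reticulum-associated degradation, rose from a mean of 20.3 to 38.3 FPKM. KDELC1, which glucosylates EGF repeats in the endoplasmic reticulum, rose from 9.95 to 19.1 FPKM. MIPEP, a peptidase that trims imported mitochondrial proteins, rose from 7.27 to 14.1 FPKM.

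**Figure D4:**
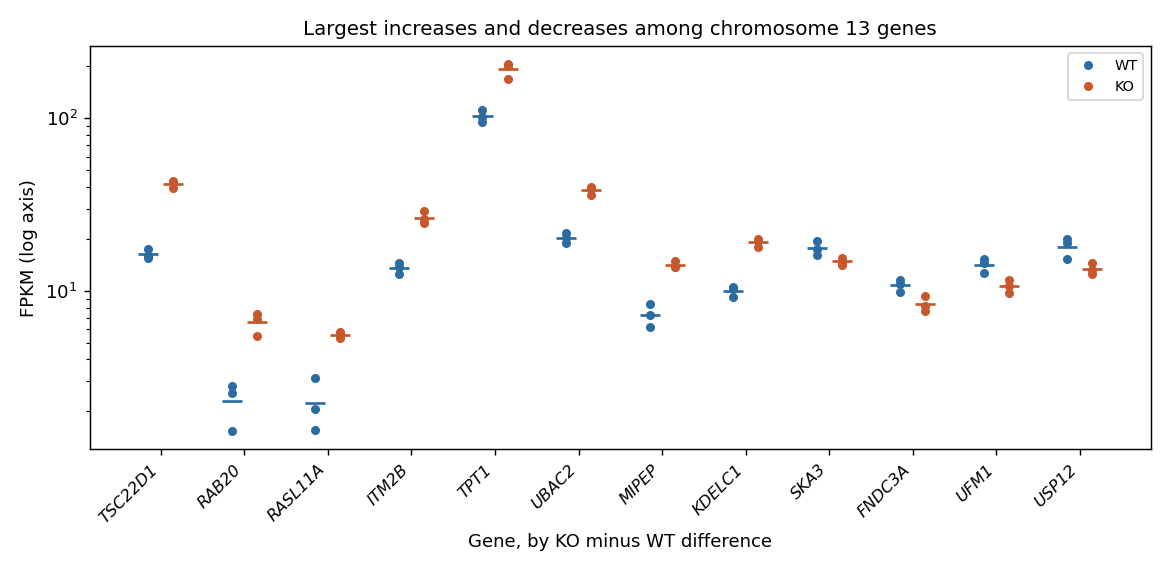
FPKM (log axis) in each library for the 8 largest increases and 4 decreases among chromosome 13 genes past the threshold, with a mean of at least 5 FPKM in the higher genotype (x axis, by KO minus WT difference). Points are libraries and bars are means of 3; in each gene the WT and KO points do not overlap, as for TSC22D1 (15.6 to 17.4 against 39.4 to 43.1) and USP12 (15.3 to 19.9 against 12.5 to 14.6).

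Decreases were few, and most were small. USP12, a deubiquitinase, was at 19.0, 19.9 and 15.3 FPKM in WT and 13.2, 12.5 and 14.6 FPKM in KO, where the highest KO library was close to the lowest WT library. USP12 (log2 difference -0.40), UFM1, the ubiquitin-fold modifier (-0.37), FNDC3A, a fibronectin-domain protein (-0.33), and SKA3, a kinetochore protein (-0.25), fell as deposited. All 4 lost the call without WT replicate 1 and without KO replicate 2. USP12, FNDC3A and SKA3 also lost it without WT replicate 2, USP12 and SKA3 without KO replicate 1, and FNDC3A and SKA3 without KO replicate 3. The highest of these adjusted p-values (limma) were 0.075 for USP12, 0.0525 for UFM1, 0.0764 for FNDC3A and 0.121 for SKA3. With the GC and length trend removed, USP12 was at -0.11, UFM1 at 0.04 and FNDC3A at -0.04, none of them called, and SKA3 at -0.12 (limma adjusted p = 0.0489).

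The largest decrease in log2 units was in a gene of low level, named after its values were seen. LACC1, an enzyme of purine metabolism in macrophages, was at 1.82, 2.13 and 1.41 FPKM in WT and 0.269, 0.371 and 0.503 FPKM in KO. Its log2 difference was -1.01 ± 0.13 (SE; limma adjusted p = 0.00103) and -0.74 with the trend removed. Its head-to-head neighbour CCDC122 was under the filter, with 84, 59 and 58 reads in the WT libraries and 27, 10 and 22 in the KO libraries. Both genes thus had fewer reads in every KO library than in any WT library. Also called lower were SLC46A3, a lysosomal membrane transporter (1.82, 2.59 and 1.69 against 1.22, 0.893 and 1.02 FPKM), SLAIN1, which promotes microtubule growth (-0.43), and C13orf46 (-0.34), the last 2 also named after their values were seen. The KO means of LACC1, SLAIN1 and C13orf46 were 0.381, 0.996 and 0.853 FPKM. These genes thus passed the filter of 1 FPKM only through the WT libraries.

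By role, the genes were sorted into 14 lists, which held 135 of the 171 tested genes; 36 fell in none. The lists were drawn up from known functions after earlier results of these data were known, and their counts are descriptions. In the text below, genes that rose or fell passed limma's adjusted threshold, and differences are KO minus WT on the log2(FPKM + 1) scale. The background share of all genes called in each direction, 21% higher and 22.4% lower, applies to each list. The lists were drawn from the 171 tested genes of the chromosome, of which 48.0% rose and 5.3% fell. With the trend removed these shares were 76.6% and 4.1%. Whether any list departed from the shares of the chromosome was not tested, so a count near them says nothing about its role.

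Among 15 genes of chromatin and the RNA polymerases, 9 rose and none fell (median 0.48; 14 were called higher with the trend removed). CDK8, the kinase of the Mediator complex, was at 12.3, 11.7 and 11.7 FPKM in WT and 18.3, 18.8 and 19.0 FPKM in KO. POLR1D, a subunit shared by RNA polymerases I and III, was at 10.4, 12.3 and 11.4 FPKM in WT and 18.8, 18.3 and 20.4 FPKM in KO. For both, the KO libraries were tightly grouped above the WT libraries, with ratios of 1.57 and 1.69. Others that rose, named after their values were seen, were GTF3A, the factor for 5S ribosomal RNA genes (0.83), ZMYM2 and MPHOSPH8, which act in gene silencing (0.61 and 0.60), and SAP18, of the SIN3 repressor complex (0.52). HMGB1, the abundant chromatin protein, stood at 62.2, 64.0 and 57.2 FPKM in WT and 67.2, 64.4 and 64.8 FPKM in KO. Its difference of 0.10 was not called (limma adjusted p = 0.255) but was 0.42 and called with the trend removed, its GC content being 37.9%; it has many pseudogene copies.

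Among 9 genes of DNA repair, replication control and the cell cycle, 7 rose and none fell (median 0.39; also 7 higher with the trend removed). RNASEH2B, a subunit of the enzyme that removes ribonucleotides from DNA, was at 0.537, 0.701 and 0.537 FPKM in WT and 1.59, 1.66 and 1.75 FPKM in KO. It rose, with a ratio of 2.81, but its WT mean was 0.592 FPKM. It thus passed the filter of 1 FPKM only through the KO libraries. TFDP1, the dimer partner of E2F factors, rose from 93.7 to 119 FPKM, and CUL4A, a ubiquitin ligase scaffold that acts on damaged DNA, from 22.4 to 29.6 FPKM. LIG4, the ligase of non-homologous end joining, stood at 4.16, 4.57 and 4.19 FPKM in WT and 4.12, 2.90 and 3.34 FPKM in KO (-0.26, not called; 0.11 with the trend removed). ERCC5, a nuclease of nucleotide excision repair, was under the filter, with 248 reads in WT and 443 in KO, and shares exons with BIVM.

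The 14 genes of the spindle, kinetochore, centrosome and cohesin were less uniform, with 5 rising, 2 falling and a median of 0.05 (0.33 with the trend removed, where 8 were called higher and 2 lower). CDC16, a subunit of the anaphase-promoting complex, was at 21.5, 23.6 and 19.2 FPKM in WT and 31.8, 36.5 and 39.2 FPKM in KO. CHAMP1, which helps to align chromosomes, rose from 12.2 to 18.0 FPKM. The 2 that fell were SKA3 and SLAIN1, described above. CKAP2, a microtubule-bound protein, stood at 22.4, 26.6 and 18.8 FPKM in WT and 19.2, 16.6 and 21.0 FPKM in KO, which overlapped. MZT1, a partner of the gamma-tubulin ring, overlapped as well (31.4 to 39.0 against 31.8 to 43.1 FPKM), with a difference of 0.02 as deposited and 0.51, called, with the trend removed; at 32.0% its GC content was the lowest of the 171 genes.

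Of 8 sequence-specific transcription factors, 4 rose and none fell (median 0.28; 6 were called higher with the trend removed). ZIC2, a zinc-finger factor of forebrain development, was at 4.55, 4.23 and 4.25 FPKM in WT and 7.34, 7.54 and 8.22 FPKM in KO, and its neighbour ZIC5, named after its values were seen, rose too (0.36). FOXO1, a forkhead factor restrained by insulin signalling, was at 2.26, 2.49 and 2.38 FPKM in WT and 3.10, 3.11 and 3.82 FPKM in KO. It rose by 0.36 (limma adjusted p = 0.0143; 0.0557 without WT replicate 1). KLF5, a Krüppel-like factor, stood at 4.66, 4.75 and 4.11 FPKM in WT and 3.82, 3.75 and 4.29 FPKM in KO, which overlapped, and was not called.

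Of 12 genes of RNA splicing, decay and processing, 6 rose and none fell (median 0.27; 10 were called higher with the trend removed). UPF3A, of the nonsense-mediated decay pathway, was at 7.02, 6.95 and 7.74 FPKM in WT and 14.4, 13.4 and 12.7 FPKM in KO, a ratio of 1.86. PSPC1 was at 20, 20.3 and 18.9 FPKM in WT and 27.5, 27.4 and 29.6 FPKM in KO. Both sets of KO libraries lay clear of WT. ARGLU1, a splicing modulator, had a difference of 0.22 that was not called (limma adjusted p = 0.0563), although its 3 KO libraries (26.4 to 31.3 FPKM) exceeded its 3 WT libraries (23.5 to 26.3 FPKM). With the trend removed its difference was 0.45 and called higher.

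In translation and nuclear transport, 3 of 10 genes rose and none fell (median 0.22; 8 were called higher with the trend removed). TPT1 and MTIF3, a mitochondrial initiation factor (7.42 to 9.68 FPKM), were 2 of them; 11.3% of the exonic bases of MTIF3 overlap GTF3A on the opposite strand. The other was RPL21, a ribosomal protein, at 238, 285 and 193 FPKM in WT and 295, 422 and 465 FPKM in KO. The lowest KO library was close to the highest WT library, the call was lost without WT replicate 1 or 3 or KO replicate 2 or 3 (limma adjusted p up to 0.0793), and RPL21 has many pseudogene copies. IPO5, an importin, was at 52.8, 60.7 and 45.9 FPKM in WT and 58.1, 70.3 and 73.4 FPKM in KO. The genotypes overlapped and its difference of 0.34 was not called (limma adjusted p = 0.0652). Without WT replicate 2 the difference was 0.44 (limma adjusted p = 0.0287), and without KO replicate 1 also 0.44 (adjusted p = 0.0344). With the trend removed it was 0.54 and called higher.

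Among 19 genes of ubiquitin and protein turnover, 7 rose and 2 fell (median 0.20; 16 were called higher and none lower with the trend removed). DCUN1D2, a cofactor of cullin neddylation, was at 4.69, 4.41 and 4.11 FPKM in WT and 8.19, 8.33 and 8.01 FPKM in KO. It rose 1.86-fold in mean FPKM with little spread in either genotype. POMP, a chaperone of proteasome assembly named after its values were seen, rose from 116 to 152 FPKM. The 2 that fell were USP12 and UFM1.

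Of 10 Golgi and glycosylation genes, 5 rose and none fell (median 0.23; 9 were called higher with the trend removed). COG3, a subunit of the Golgi tethering complex, was at 7.17, 6.85 and 6.51 FPKM in WT and 10.5, 10.0 and 9.95 FPKM in KO. KDELC1, described above, rose too. Of 10 genes of lysosomes, endosomes and membrane traffic, 4 rose and none fell (median 0.20; 8 were called higher with the trend removed). LAMP1, a major glycoprotein of the lysosomal membrane, was at 77.0, 78.8 and 82.0 FPKM in WT and 123, 115 and 123 FPKM in KO, a ratio of 1.52. With RAB20 and ITM2B it made 3 of the 4. SLC46A3, the lysosomal membrane transporter that fell, was counted with solute transport and not in this list.

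Of 7 mitochondrial genes, 5 rose and none fell, and the median of 0.50 was the highest of the lists as deposited; 7 were called higher with the trend removed. MIPEP was at 6.19, 8.34 and 7.27 FPKM in WT and 13.7, 13.7 and 14.8 FPKM in KO. NAXD, which repairs damaged NADH and NADPH, was at 24.4, 22.6 and 23.6 FPKM in WT and 36.9, 36.2 and 35.1 FPKM in KO. Neither gene overlapped between genotypes. PCCA, a subunit of propionyl-CoA carboxylase named after its values were seen, rose from 1.63 to 3.57 FPKM. CLYBL, a mitochondrial enzyme also named on its values, was under the filter, with 9, 19 and 17 reads in WT and 88, 65 and 55 reads in KO.

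Among 13 kinases, GTPase regulators and receptors, 7 rose and none fell (median 0.25; 10 were called higher with the trend removed). GAS6, the secreted ligand of the TAM receptor kinases, was at 47.3, 45.1 and 47.4 FPKM in WT and 72.2, 75.1 and 80.8 FPKM in KO. IRS2, an adaptor of the insulin receptor, was at 7.19, 6.30 and 6.69 FPKM in WT and 11, 12 and 12.6 FPKM in KO. The ratios were 1.63 and 1.76, without overlap. STK24, a kinase of the STE20 group, rose from 11.2 to 20.4 FPKM, but 63.2% of its exonic bases overlap FARP1 on the opposite strand, and FARP1, named after its values were seen, rose as well (0.42). LATS2, a kinase of the Hippo pathway, stood at 11.2, 10.2 and 10.7 FPKM in WT and 9.62, 10.4 and 10.9 FPKM in KO, overlapped and was not called.

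Few genes of adhesion and matrix or of solute transport were expressed enough to test. In adhesion and matrix, 4 of 15 genes were tested: ITGBL1, an integrin beta-like protein (4.11 to 6.88 FPKM), and THSD1, a focal adhesion protein (3.98 to 5.60 FPKM), rose, FNDC3A fell, and POSTN, the matrix protein periostin, was at 0 in every library. In transport, 4 of 9 were tested. ATP7B, the copper pump mutated in Wilson disease, was at 1.03, 0.870 and 1.06 FPKM in WT and 2.53, 2.50 and 2.35 FPKM in KO. ATP7B rose 2.49-fold in mean FPKM, from a WT mean of 0.986 FPKM that was itself under the filter, whereas SLC46A3 fell. None of the 4 coagulation genes passed the filter.

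The 124 genes under the filter were not tested. Of these, 37 had no read in any library and 54 had 1 to 29 reads in all. The remaining 33 had at least 30 reads. Of those, 22 had more reads in KO, 10 more in WT and 1 the same number. These reads were not scaled for depth, and the KO libraries were deeper (16955111 to 17276269 reads) than the WT libraries (16410352 to 16461752 reads). The same split was not counted over all genes under the filter, so no lean is read from it. The examples that follow were picked after their values were seen. GJB2, the gap-junction protein connexin 26, had 36, 28 and 36 reads in WT and 1, 2 and 0 in KO. HS6ST3, a heparan sulfate sulfotransferase, had 115, 89 and 98 reads in WT and 28, 28 and 30 in KO. In the other direction, ALOX5AP, the activating protein of 5-lipoxygenase, had 11, 7 and 10 reads in WT and 47, 41 and 21 in KO. ATP4B, a subunit of the gastric proton pump, had no read in WT and 11, 9 and 16 reads in KO. In these 4 examples, which lay in both directions, the libraries of the genotypes did not overlap.

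Head-to-head neighbours did not all have like differences. Of 15 pairs with starts within 1000 bases in the deposited annotation and both partners tested, 3 had both partners called higher, 6 had 1 called higher and 1 not called, and 6 had neither called. For comparison, 48.0% of the tested genes of the chromosome and 21% of all genes were called higher. The difference between partners ran from 0.04 to 0.93 log2 units, with a median of 0.25; whether partners differed from each other was not tested. KDELC1 was at 10.2, 10.5 and 9.25 FPKM in WT and 19.4, 17.9 and 20 FPKM in KO. BIVM, the plus-strand partner, was at 4.04, 4.70 and 3.55 FPKM in WT and 4.22, 3.99 and 3.42 FPKM in KO. The first rose by 0.87 and the second, at -0.06, overlapped between genotypes. With the trend removed KDELC1 was at 0.88, called higher, and BIVM at 0.09, not called. Of the exonic bases of BIVM, 28.8% are shared with ERCC5 on the same strand.

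COMMD6, of a family that regulates NF-kappa-B and copper handling, was at 7.67, 9.54 and 6.93 FPKM in WT and 15.1, 14.0 and 16.3 FPKM in KO. UCHL3, a deubiquitinase on its other side, was at 1.24, 1.80 and 1.23 FPKM in WT and 1.35, 1.98 and 2.50 FPKM in KO. COMMD6 rose by 0.84, and the 0.27 of UCHL3 was not called, on 39 to 79 reads per library. With the trend removed COMMD6 was at 0.97 and UCHL3 at 0.44, both called higher. LNX2, a ubiquitin ligase beside POLR1D, stood at 6.15, 5.65 and 4.92 FPKM in WT and 6.34, 6.01 and 6.52 FPKM in KO (0.15, not called, against 0.71 for POLR1D). With the trend removed LNX2 was at 0.36 and POLR1D at 0.71, both called higher. NUFIP1, an RNA-binding assembly factor, was at 8.21, 8.60 and 8.06 FPKM in WT and 11.7, 11 and 12.5 FPKM in KO. GPALPP1, its little-studied partner, was at 2.31, 2.55 and 2.28 FPKM in WT and 3.53, 3.28 and 3.49 FPKM in KO. These 2 partners rose by 0.45 and 0.39, and by 0.71 and 0.70 with the trend removed.

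**Figure D5:**
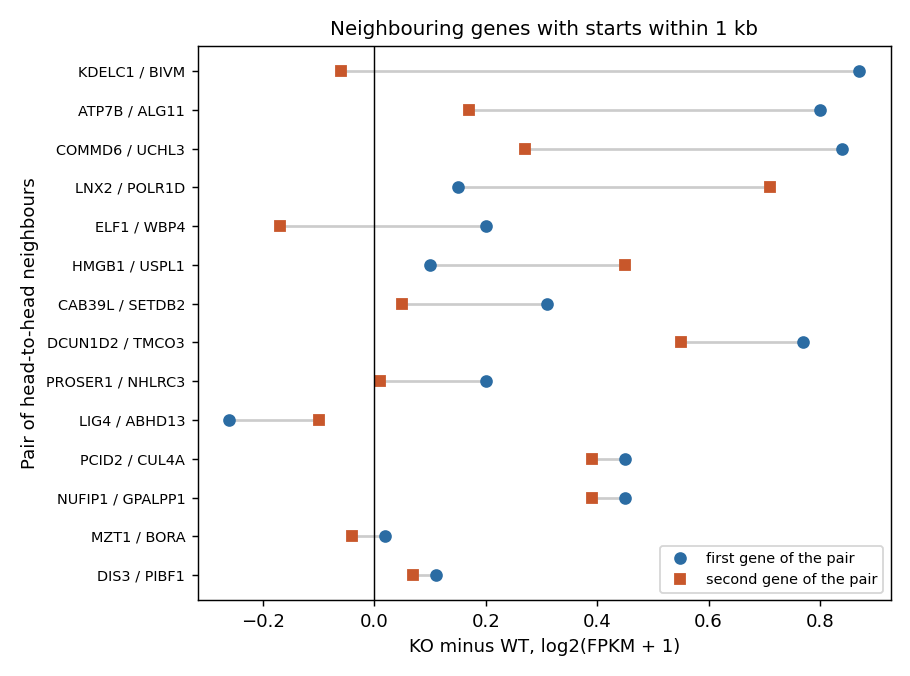
KO minus WT difference in log2(FPKM + 1) (x axis) of both genes of each of 14 head-to-head pairs (y axis), by the difference between partners. Circles are the minus-strand gene, named first, and squares the plus-strand gene; the pairs run from KDELC1 and BIVM (0.87 and -0.06) to DIS3 and PIBF1 (0.11 and 0.07).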

How the data were processed

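RNA of 3 WT and 3 KO samples was measured. The authors deposited FPKM values for 58735 genes, with positions and lengths, per the file headers. Which aligner, counter and strand setting they used is not given in the sources used here. Mouse builds (GRCm38, mm10) appear in the submitters' processing notes, but all 58735 gene positions equal human GENCODE 29 on GRCh38. FPKM times length stepped in whole reads (100.0% of values within 0.02), 16410352 to 17276269 per library. This number limits the precision of low genes.

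The chromosome's genes and the role lists were chosen with earlier results of these data known. The 12000 genes whose mean FPKM reached 1 were tested with limma 3.58.1 in R 4.3.3 (lmFit, eBayes with trend, genotype only, two-sided) on log2(FPKM + 1), which understates changes of low genes. P-values were adjusted by Benjamini-Hochberg over all 12000, with a threshold of 0.05. The fit was tested on simulated data. GC content came from each gene's longest GENCODE transcript (11992 tested genes), and each library's trend on GC and length was removed by lowess (span 0.3). Named genes were the 8 largest increases and up to 8 decreases at 5 FPKM or more in the higher genotype without overlap, the most abundant gene per 10 Mb window, up to 2 genes per list with the smallest adjusted p, and a fixed list (HMGB1, FOXO1, IRS2, LATS2, LAMP1, ITM2B, GAS6, KLF5, POSTN, ERCC5, LIG4, CUL4A). Others were named after their values were seen. Some genes that meet the rule are not reported here. Alternatives covered normalization, pseudocount, filter, GC content, limma-voom, the replicate block and each library left out.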

Additional observations from a re-analysis of the deposited data

How the results depend on the processing

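Of 38 named chromosome 13 genes called, 32 were called in every setting run; over all named genes and settings 597 values kept their direction and their side of the threshold, 30 lost the call, 11 gained it and 10 turned, and the cause was not tested. With a mean FPKM of at least 5, 3203 genes were called in all, 5 chromosome 13 genes were lower, and the chromosome's median was 0.33, fewer genes being tested. With no filter the median was 0.11. With the GC and length trend removed it was 0.42, with 131 genes higher. The replicate block gave 3866 calls in all, 71 higher and 4 lower; correlations of same-numbered libraries (-0.07, -0.18 and -0.35) did not pair them. Leaving out a library in turn gave 3789 to 5372 calls in all, 72 to 86 chromosome 13 genes higher and 4 to 10 lower. Lower calls numbered 4 without WT replicate 1 or KO replicate 2 and 5 without WT replicate 2.

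Window medians with the trend removed were 0.43 (20 to 30 Mb), 0.36 (30 to 40), 0.47 (40 to 50), 0.27 (50 to 60), 0.37 (70 to 80), 0.51 (90 to 100) and 0.45 (100 to 110). With no filter they were 0.09 (20 to 30 Mb), 0.14 (40 to 50), 0.11 (50 to 60), 0.14 (90 to 100), 0.24 (100 to 110) and 0.39 (110 to 120). A pseudocount of 0.1 gave 0.25 (50 to 60 Mb), 0.50 (100 to 110) and 0.56 (110 to 120). A mean FPKM of at least 5 gave 0.22 (100 to 110 Mb) and 0.55 (110 to 120), and limma-voom 0.48 (100 to 110 Mb). Leaving out libraries in turn gave 0.28 to 0.38 (20 to 30 Mb), 0.06 to 0.14 (30 to 40), 0.24 to 0.34 (40 to 50), 0.13 to 0.22 (50 to 60), 0.02 to 0.11 (70 to 80), 0.24 to 0.40 (90 to 100), 0.30 to 0.40 (100 to 110) and 0.48 to 0.54 (110 to 120).

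With the GC and length trend removed, UFM1 (0.04), CKAP2 (0.12) and LIG4 (0.11) turned. TDRD3 turned without WT replicate 1 (-0.00), WT replicate 3 (-0.01) or KO replicate 3 (-0.03). MZT1 turned with quantile normalization (-0.03), limma-voom (-0.01), without WT replicate 3 (-0.06) and without KO replicate 3 (-0.10). Low read numbers limit genes near 1 FPKM.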
